A study of Mus musculus with 2 samples.

Results

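The genes described here encode 2 hormones of fat tissue, adiponectin (Adipoq) and leptin (Lep), the leptin receptor (Lepr), both adiponectin receptors (Adipor1 and Adipor2), and 5 subunits of AMP-activated protein kinase, AMPK (Prkaa1, Prkaa2, Prkab1, Prkab2 and Prkag1). They were chosen by name: every probe set whose platform gene symbol was exactly 1 of these 10 was taken, which gave 22 of the 45101 probe sets on the array and 10 of the 18193 genes named there. A probe set is a group of short oligonucleotides that together read a transcript. RNA came from isolated glomeruli, the capillary tufts in which the kidney filters blood, of male KK/Ta mice, a strain prone to obesity and type 2 diabetes. The mice were 20 weeks old, and the groups were a high-fat diet (HFD, 1 Affymetrix Mouse Genome 430 2.0 array) and a normal-fat chow (Chow, 1 array). The design text mentions 3 mice but not how they map to the arrays, so each array may hold RNA pooled from several animals. With 1 array per diet no difference has a replicate check, so no p-value or standard error is given and each value describes these RNA preparations.

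Adiponectin and leptin are secreted mainly by adipocytes. Leptin acts on cells through its receptor and the kinase JAK2, and adiponectin through AdipoR1 and AdipoR2, whose stimulation is known to raise AMPK activity. AMPK is a sensor of cellular energy made of a catalytic alpha, a scaffolding beta and a nucleotide-binding gamma subunit, and when active it restrains lipid synthesis and promotes fatty acid oxidation. Adiponectin signalling to AMPK is known for its link to podocytes, the epithelial cells of the filter. AMPK is switched on by phosphorylation and by AMP, and an array of transcripts shows neither.

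Transcripts of both adiponectin receptors and of all 5 AMPK subunits were detected in glomeruli on both diets, those of the hormones were not, and of the 14 probe sets above the detection floor on both arrays 0 differed between the diets by 1.5-fold or more. Detection was judged by a floor at the median signal of an array, which was 42.35 for HFD and 44.87 for Chow. Of the 22 probe sets 14 lay above the floor on both arrays, 1 in HFD only, 1 in Chow only and 6 on neither. Of the 16 above the floor on at least 1 array, 0 were at least 2-fold higher and 0 at least 2-fold lower in HFD. Over all 23419 probe sets above the floor on at least 1 array, 0.615% were at least 2-fold higher and 0.295% at least 2-fold lower, so counts of 0 among 16 are near that background. By any amount 10 of the 16 were higher, against 56.6% of all. At 1.5-fold the shares of all probe sets were 3.66% higher and 2.58% lower, and the members again counted 0 and 0. Of those 16 the 2 detected on 1 array only, both of Lepr, carry bounds, so a larger difference is possible there, and the 6 under the floor were not compared.

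**Figure D1:**
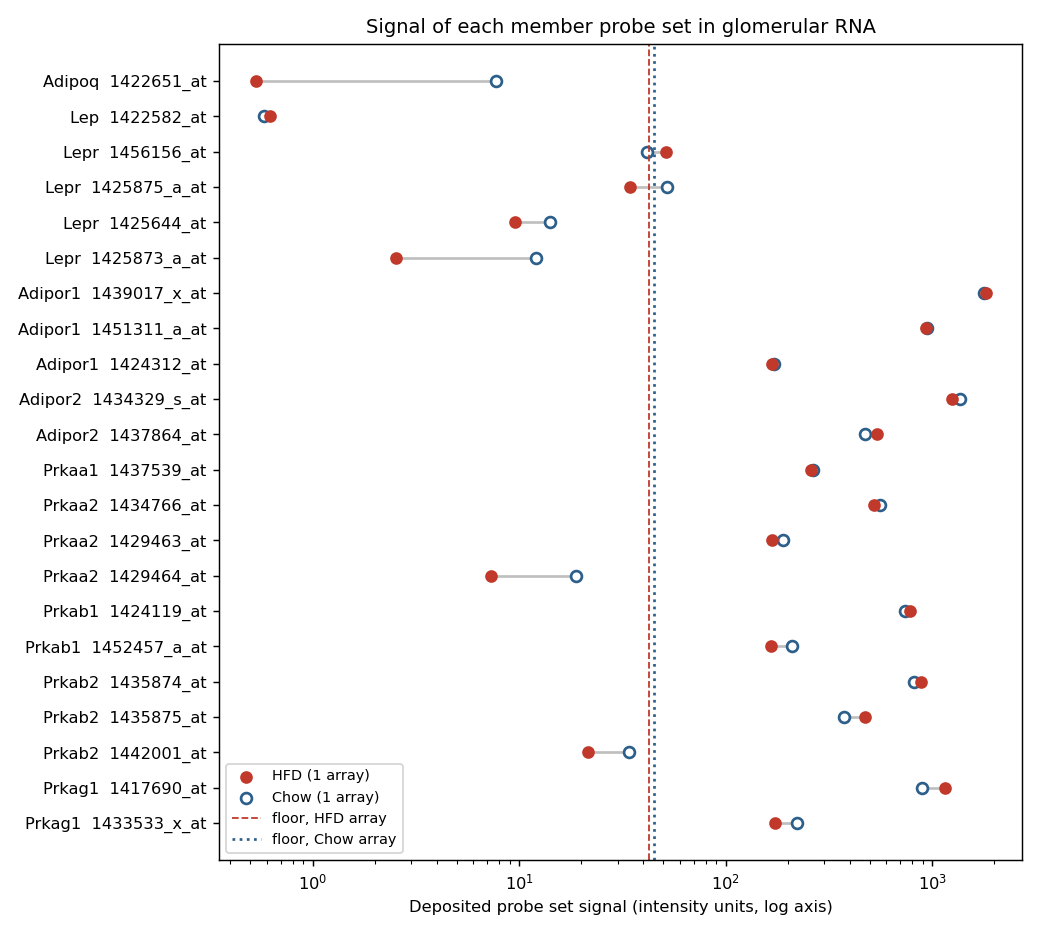
Deposited signal (horizontal log axis, intensity units) of each of the 22 probe sets, with a filled red point for HFD and an open blue point for Chow; the dashed and dotted vertical lines are the floors of the HFD and Chow arrays. The probe sets of Adipoq and Lep lie under the floor on both arrays. Those of Lepr lie under it or above it on 1 array only, and at least 1 probe set of each other gene lies above it on both arrays.

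The promoters of the hormone genes and of a receptor gene are shown because the genes differ in whether a transcript was seen at all. RefSeq promoter windows (build GRCm38.p6) were given for all 10 genes, 12 windows in all since Lepr and Adipor1 have a pair each, and the 250 bases before the start are used. Cytosine followed by guanine (CG) is in capitals.
Adipoq, chr16:23146286-23146535, plus strand: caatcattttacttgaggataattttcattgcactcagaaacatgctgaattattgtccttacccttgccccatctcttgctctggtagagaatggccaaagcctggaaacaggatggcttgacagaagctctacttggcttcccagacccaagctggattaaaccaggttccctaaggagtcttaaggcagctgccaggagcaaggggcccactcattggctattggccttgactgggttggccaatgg
Lep, chr6:29059971-29060220, plus strand: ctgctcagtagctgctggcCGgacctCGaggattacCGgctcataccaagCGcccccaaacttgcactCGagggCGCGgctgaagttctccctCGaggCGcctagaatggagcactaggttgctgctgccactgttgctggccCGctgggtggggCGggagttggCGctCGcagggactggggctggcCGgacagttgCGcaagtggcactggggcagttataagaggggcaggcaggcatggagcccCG
Adipor2, chr6:119388735-119388984, minus strand: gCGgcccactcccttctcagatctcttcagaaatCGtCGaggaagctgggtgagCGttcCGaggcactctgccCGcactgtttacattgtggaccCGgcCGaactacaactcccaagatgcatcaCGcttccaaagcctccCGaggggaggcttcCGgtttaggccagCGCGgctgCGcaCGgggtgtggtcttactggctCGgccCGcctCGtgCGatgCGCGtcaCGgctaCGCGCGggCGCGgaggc

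The Adipoq window held 0 CG, the Lep window 16 and the Adipor2 window 27. The windows of the AMPK subunit genes held between 12 (Prkag1) and 45 (Prkaa1), those of Adipor1 15 and 33, and each of those of Lepr 10. Over genes detected on both arrays the median was 16 (11291 windows), against 5 over genes whose probe sets were all under the floor (6212 windows). Adipoq thus held fewer than the median of undetected genes, and Lep, also undetected, lay at the median of the detected ones. Of the members' windows that of Lep alone held TATAA on either strand, as did 22.8% of all windows. The sequence CCAAT on either strand was found in the windows of Adipoq and Prkag1 and in 1 of the pair for each of Lepr and Adipor1, against 33.8% of all windows. These matches describe the letters and are not evidence of use.

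The hormone genes gave no signal above the floor. The single Adipoq probe set read 0.5292 in HFD and 7.732 in Chow, and the single Lep probe set 0.6209 in HFD and 0.582 in Chow. Both arrays were far under the floor for both genes, so no fold is given. The list of adipocyte markers showed the same for other genes that define fat cells: Cidec, which coats lipid droplets, Retn, encoding resistin, Plin4 and Ucp1 were under the floor on both arrays. These genes were named after their values were seen. Of that list, 3 of 9 genes with a probe set were above the floor (Fabp4, Lipe and Car3). Fabp4, a fatty acid carrier of adipocytes also made by endothelium, had 4549 in HFD and 4042 in Chow in its brightest probe set (0.25). The next brightest went the other way, with 2019 in HFD and 2531 in Chow (-0.24). The remaining Fabp4 probe sets differed by 0.44 and -0.05. Car3, a carbonic anhydrase abundant in fat, had 41.91 in HFD and 138.4 in Chow in probe set 1449434_at, above the floor in Chow only and at least 3.08-fold lower. That call was lost with a floor at the 70th percentile, and the probe set drops out where both arrays must be above the floor. The other Car3 probe sets were under the floor on both arrays. The 6 probe sets of the list above the floor had a median difference of 0.05, and 4 of the 6 are probe sets of Fabp4, so this median mostly describes that gene.

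The leptin receptor lay at the edge of detection and its probe sets did not go one way. Probe set 1456156_at had 51.6 in HFD and 41.69 in Chow, above the floor in HFD only, which is at least 1.22-fold higher. Probe set 1425875_a_at had 34.54 in HFD and 52.15 in Chow, above the floor in Chow only, which is at least 1.16-fold lower. The other two had 9.588 and 2.542 in HFD, against 14.1 and 12.09 in Chow, and stayed under the floor. The receptor gene has several transcript forms, and the sources used here do not say which form each probe set reads. The signals bound the level and set no direction for Lepr.

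Both adiponectin receptor genes were detected in every probe set. Adipor1, the receptor abundant in mouse skeletal muscle and expressed widely, had 1821 in HFD and 1778 in Chow in probe set 1439017_x_at, some of whose probes may match other sequences. Its next probe set had 933.9 in HFD and 943.8 in Chow, and its dimmest 168.4 in HFD and 170.7 in Chow. After each array was centred on its median, these were differences of 0.12, 0.07 and 0.06 log2 units, all within 1.09-fold. The centring adds 0.083 log2 units to every difference between values above the floor on both arrays, so 2 of the 3 change sign without it, and all 3 are negative when the arrays are centred on their Gapdh and beta-actin controls (-0.19 to -0.13).

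Adipor2, the receptor that is abundant in mouse liver, gave a mixed picture. Probe set 1434329_s_at, whose suffix marks probes shared with other transcripts, had 1252 in HFD and 1371 in Chow, a difference of -0.05. Probe set 1437864_at had 540.9 in HFD and 470.4 in Chow, a difference of 0.28 (1.22-fold). A measure of precision is the scatter of HFD minus Chow over probe sets of like signal (scaled median absolute deviation within 10 equal classes of mean signal), which holds noise and real differences together. It was 0.17 log2 units for the first of these probe sets and 0.20 for the second, so the difference of 1437864_at was 1.44 times the scatter. It shrank to 0.03, under that scatter, with control centring.

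The catalytic AMPK subunits differed little between the diets. Prkaa1, encoding alpha-1, had 258.1 in HFD and 264.7 in Chow, a difference of 0.05 against a scatter of 0.24. Prkaa2, encoding alpha-2, had 524.8 in HFD and 559.8 in Chow in its brightest probe set (-0.01), and 168.5 in HFD and 188.8 in Chow in the next (-0.08). With median centring these differences were at most 0.291 times the scatter of their classes; with control centring they were -0.21, -0.26 and -0.33. One more Prkaa2 probe set was under the floor, at 7.314 in HFD and 18.84 in Chow. Prkaa1 turned negative without centring and with control centring, while both Prkaa2 probe sets were negative in each alternative run. Other floors and probe set choices left these Prkaa2 values unchanged where they were compared, so those runs do not bear on the sign.

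Among member probe sets above the floor on both arrays, the largest differences were those of regulatory subunits. Prkag1, encoding the gamma-1 subunit that binds AMP and ATP, had 1149 in HFD and 888.9 in Chow in probe set 1417690_at, 1.37-fold higher (0.45 log2 units, 2.44 times the scatter of 0.19). Prkab2, encoding beta-2, had 471.1 in HFD and 375.8 in Chow in probe set 1435875_at, 1.33-fold higher (0.41, 1.93 times the scatter), and 887.8 in HFD and 821.1 in Chow in probe set 1435874_at, 1.15-fold higher (0.20). The dimmest Prkab2 probe set, 21.49 in HFD and 33.97 in Chow, was under the floor. The differences of 1417690_at and 1435875_at were positive in each of the 10 alternatives run, at lowest 0.20 and 0.16, both with control centring. That of 1435874_at was -0.06 there. Other floors and probe set choices left these values unchanged, so only the other scalings and the added percentile bear on the sign.

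Both Prkag1 and Prkab1 had probe sets that disagreed. The dimmer Prkag1 probe set, 1433533_x_at, some of whose probes may match other sequences, had 174.2 in HFD and 221.7 in Chow, 1.20-fold lower (-0.26). Prkab1, encoding beta-1, had 779 in HFD and 740.4 in Chow in 1424119_at (0.16) and 165.2 in HFD and 208.8 in Chow in 1452457_a_at (-0.25). In each gene the brighter probe set was higher in HFD and the dimmer one lower, except that with control centring the brighter Prkab1 probe set was also lower (-0.096). Over all probe sets the median difference was 0.02 in the signal class that holds both dimmer ones and 0.06 in the class that holds both brighter ones. Position of the probes along the transcript, and whether the paired probe sets read the same transcript form, are not given in the sources used here.

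**Figure D2:**
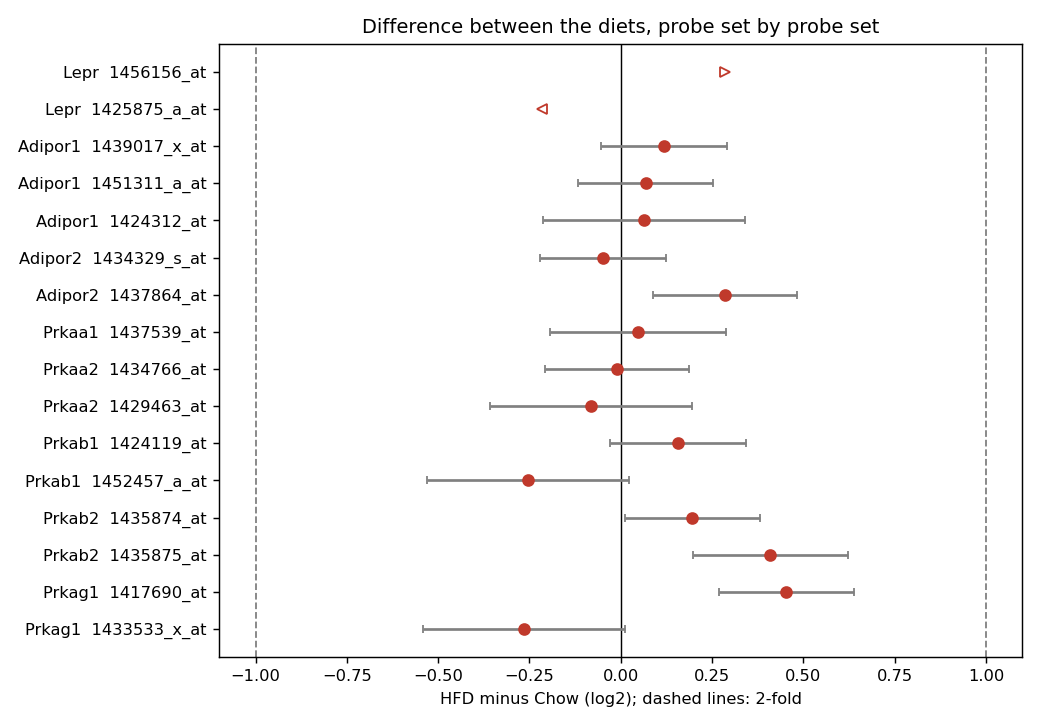
HFD minus Chow on the log2 scale for the 16 probe sets above the floor on at least 1 array. Filled points were above the floor on both arrays and their bars show the scatter of differences over probe sets of like signal on each side, not a replicate error; open triangles are bounds from 1 array. All points lie between -0.26 and 0.45, inside the dashed lines at 2-fold.

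Among the 14 probe sets above the floor on both arrays, 9 were higher and 5 lower in HFD, and the median difference was 0.07. Over all 21617 such probe sets 57.1% were higher and the median was 0.04. A difference larger than the scatter of its signal class was seen for 4 of the 14 member probe sets (1 of Prkag1, both of Prkab2 and 1 of Adipor2), against 34.1% of all. The members therefore stood near the array as a whole on each of these counts.

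**Figure D3:**
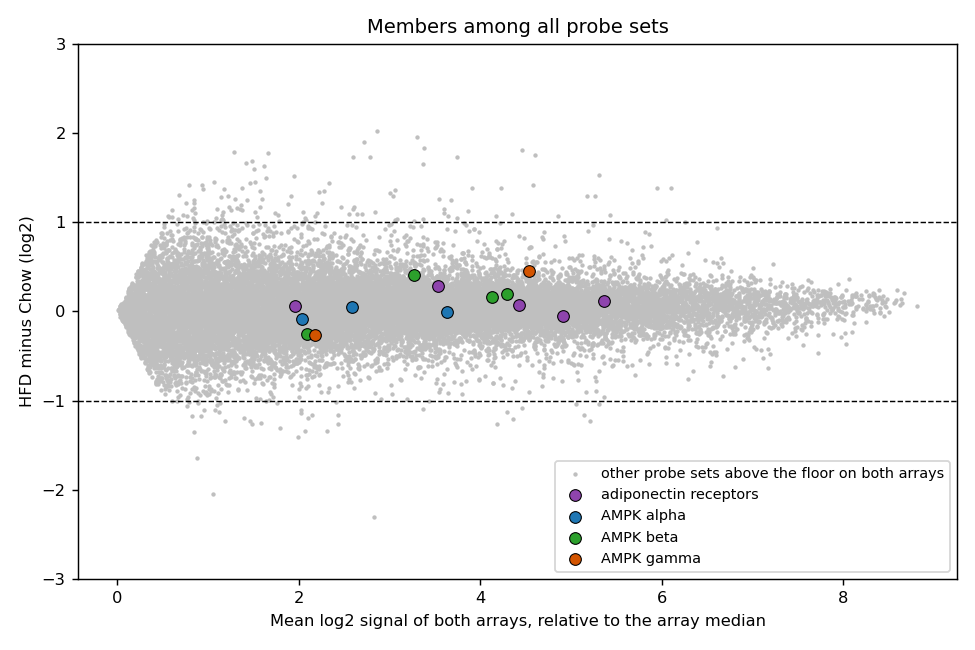
HFD minus Chow (vertical, log2) against the mean log2 signal of both arrays relative to the array median (horizontal), in grey for other probe sets detected on both arrays and in colour for the 14 of the member genes; dashed lines mark 2-fold. The coloured points lie inside the grey cloud, the highest being Prkag1 at 0.45.

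Probe sets of 1 gene give a check within these RNA preparations, though not of variation between mice. Of the 6 member genes with at least 2 probe sets above the floor on both arrays, 3 had all of them in 1 direction with median centring (Adipor1, Prkaa2 and Prkab2). This was the same share as the 50% of 4912 such genes on the array. Which genes these were depended on scaling. Without centring Adipor1 ran from -0.02 to 0.03. With control centring Prkab2 stood at -0.06 and 0.16, while both Prkab1 probe sets were lower. The differences of Adipor1 and Prkaa2 were at most 0.684 times the scatter of their classes. The range between probe sets was 0.05 log2 units for Adipor1, 0.07 for Prkaa2, 0.21 for Prkab2, 0.33 for Adipor2, 0.41 for Prkab1 and 0.72 for Prkag1. The median over all genes was 0.25. A range as wide as that of Prkag1 was found in 6.86% of genes, and it exceeds the 0.45 that its brighter probe set differed by.

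**Figure D4:**
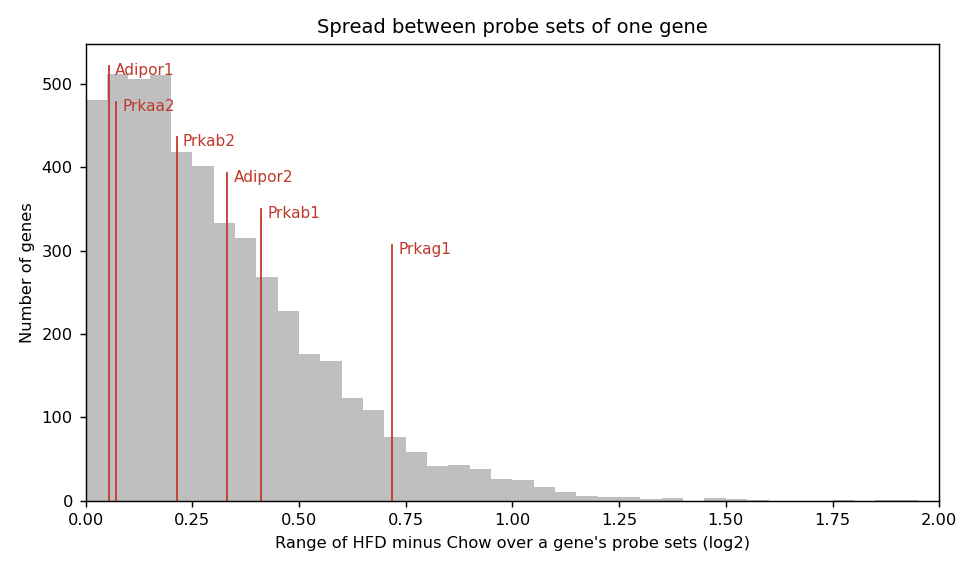
Number of genes (vertical) by the range of HFD minus Chow over their probe sets above the floor on both arrays (horizontal, log2), for 4912 genes, with red lines at the 6 member genes; 4 genes beyond 2 log2 units are not drawn. Adipor1 at 0.05 lies at the narrow end and Prkag1 at 0.72 in the wide tail.

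Other genes of the same pathways, taken from lists chosen with earlier results of these arrays known, are described beside the members. Their counts are to be read against the 56.6% higher and the median of 0.04 over all probe sets, and with control centring the medians of all 6 lists were negative. Leptin signalling genes had 15 of 23 probe sets above the floor higher and a median of 0.07, with 0 at least 2-fold higher or lower. Socs3, the feedback inhibitor induced by leptin receptor signalling, had 356 in HFD and 192.4 in Chow in 1 probe set (1.96-fold), but its 2 brighter probe sets differed by -0.21 and 0.07. Irs2, an insulin receptor substrate, had 123.8 in HFD and 181.5 in Chow (-0.47). Stat3, the transcription factor activated through the leptin receptor, had 1531 in HFD and 1440 in Chow in its brightest probe set (0.17), and its other two above the floor differed by 0.26 and -0.20. The phosphatase gene Ptpn1, whose product restrains JAK2, had 1837 in HFD and 1761 in Chow (0.15) and, in a second probe set, 805.9 in HFD and 693.3 in Chow (0.30). Socs3 thus stood out in 1 of 3 probe sets, 1416576_at, at 4.04 times the scatter of its signal class. Some probes of the 2 brighter ones, 1455899_x_at and 1456212_x_at, may match other sequences.

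Of the genes for adiponectin binding and adaptors, 4 of 13 probe sets were higher and 9 lower, with a median of -0.04. Appl1, the adaptor that binds the adiponectin receptors, had 84.41 in HFD and 152.9 in Chow in its dimmest probe set (-0.77) and 285.5 in HFD and 411 in Chow in another (-0.44). Its brightest, with 1514 in HFD and 1609 in Chow, differed by -0.0039, and the remaining one, with 317.6 in HFD and 290.4 in Chow, by 0.21. Cdh13, encoding T-cadherin, which binds adiponectin at the cell surface, had 178.8 in HFD and 152.7 in Chow (0.31) and, in a second probe set, 141.3 in HFD and 152.2 in Chow (-0.02). Erp44, which retains adiponectin in the secretory pathway, differed by 0.21 and -0.13. Calr, encoding calreticulin, differed by -0.15 to -0.04 over its 3 probe sets.

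Further AMPK subunits and upstream kinases had 13 of 17 probe sets higher, with a median of 0.11 and none 2-fold. Prkag2, encoding gamma-2, had 120.1 in HFD and 88.66 in Chow (0.52) and, in a second probe set, 111.3 in HFD and 97.02 in Chow (0.28), at signals where the scatter was 0.32. Strada, an activator of the upstream kinase LKB1, had 139.7 in HFD and 99.39 in Chow (0.57). Stk11, which encodes LKB1 itself, had 577.3 in HFD and 607.7 in Chow (0.01), and Camkk2, the calcium-dependent AMPK kinase, 536.9 in HFD and 531.8 in Chow (0.10) in its brightest probe set. Stk11 and Camkk2 were named after their values were seen, for their role. Cab39l, a partner of LKB1, stood at 0.35 and 0.11, and Map3k7, encoding TAK1, between -0.30 and 0.06.

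AMPK substrates and partners had 19 of 40 probe sets higher and a median of -0.03. Eef2k, a kinase of translation elongation that AMPK activates, had 338.5 in HFD and 553.1 in Chow, 1.54-fold lower (-0.63), and its 2 other probe sets were at -0.39 and -0.09. Ppargc1a, the mitochondrial coactivator PGC-1alpha, ran from -0.40 to 0.58 over its probe sets, at signals between 48.78 and 205.4 in HFD and between 41 and 163.8 in Chow. Tbc1d1, a regulator of glucose transporter traffic, stood at 0.71 in a dim probe set (75.77 in HFD and 48.98 in Chow). It stood at 0.135 in another dim one (50.61 in HFD and 48.84 in Chow) and at -0.09 in a bright one (1077 in HFD and 1219 in Chow). Hnf4a, a transcription factor of proximal tubule in the kidney, had 488.3 in HFD and 359.1 in Chow in its brightest probe set (0.53), 54.24 in HFD and 54.84 in Chow in another (0.07), and bounds of 0.39 and 0.05 in the other two. The median of proximal tubule markers was 0.67, and their part in this difference was not tested.

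AMPK-related kinases had 16 of 22 probe sets higher, with a median of 0.09. Mark2, a polarity kinase, had 341.6 in HFD and 184.7 in Chow in its brightest probe set (0.97), with 0.54 and -0.11 in the other two. Nuak1 had 677.3 in HFD and 533.3 in Chow (0.43), and all 5 Mark1 probe sets lay between 0.13 and 0.36. The 2 Sik1 probe sets, each above the floor on 1 array only, gave bounds of -0.55 and 0.52. Other adipokines and their receptors had 5 of 9 probe sets higher (median 0.05). Aplnr, the apelin receptor of endothelium, was the gene of these 6 lists with a probe set past 2-fold: 164.3 in HFD and 76.3 in Chow, 2.28-fold higher, and in its bright probe set 1215 in HFD and 717.9 in Chow, 1.79-fold higher. The 2-fold call was lost with control centring and with a floor at the 70th percentile. Its ligand gene Apln had 63.57 in HFD and 91.3 in Chow (-0.44). Nampt, encoding visfatin, stood between 0.05 and 0.43, and Rarres2, encoding chemerin, at -0.31 and -0.07.

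**Figure D5:**
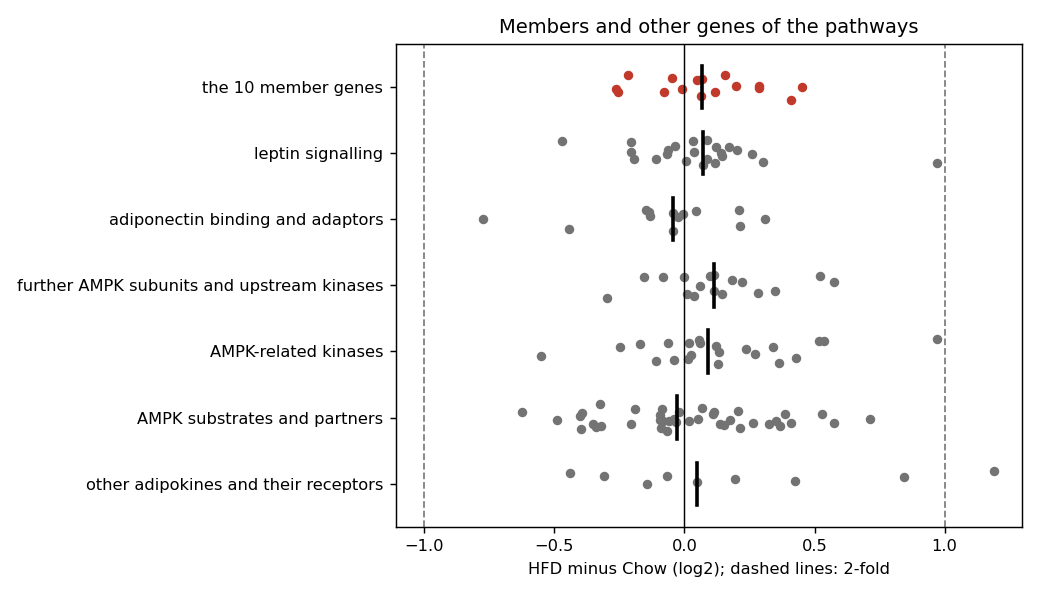
HFD minus Chow (horizontal, log2) of each probe set above the floor on at least 1 array, for the 10 member genes (red) and 6 lists of other pathway genes (grey), with a black bar at the median; the vertical spread of points has no meaning and dashed lines mark 2-fold. Medians run from -0.04 to 0.11, and 1 grey point, a probe set of Aplnr, lies beyond 2-fold.

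The cell make-up of the preparations is the background to all of these values. Podocyte markers such as Nphs1 (5421 in HFD and 5427 in Chow) and Podxl were bright on both arrays, as the label glomeruli has it. In their probe set with the largest difference, Cd2ap stood at -0.34, Podxl at 0.23, Wt1 at -0.20 and Nphs1 at 0.08. Likewise the endothelial genes Plvap, Cdh5, Flt1 and Pecam1 stood at 0.50, 0.39, 0.23 and 0.22, and the mesangial genes Pdgfrb, Itga8, Gata3 and Des at 0.29, 0.27, 0.08 and -0.02. The brightest probe sets of Flt1 (-0.08) and Pdgfrb (-0.12) went the other way, and that of Podxl stood at -0.003. Larger values were those of the tubule and macrophage lists. In their probe set with the largest difference, Slc22a6, Cyp2e1, Cubn and Slc27a2 of the proximal tubule stood at 1.21, 0.97, 0.87 and 0.78. The brighter Cubn probe set stood at 0.47. Aqp1 and Slc5a2 of the same list were named after their values were seen. Aqp1 stood at -0.24, and Slc5a2 at 0.03 in its bright probe set and 0.71 in its dim one. The genes Slc12a3, Calb1, Cldn8 and Slc12a1 of the later segments stood at 0.83, 0.82, 0.80 and 0.71. Of the macrophage list H2-Aa, Cd74 and Ptprc stood at 1.90, 1.84 and 1.73 in their probe set with the largest difference, and Cd68 at a bound of 1.28. The brightest H2-Aa probe set stood at 1.38. Other genes of that list, named after their values were seen, were Adgre1 at 1.22, Csf1r between 0.77 and 1.05, and Itgam, under the floor on both arrays. Which cells these transcripts came from was not tested. The median difference was -0.04 for 11 podocyte, 0.18 for 13 endothelial and 0.11 for 6 mesangial probe sets above the floor. It was 0.67 for 12 proximal tubule, 0.71 for 7 loop, distal and collecting duct and 1.22 for 15 macrophage probe sets. Of the 15 macrophage probe sets 10 were at least 2-fold higher, against 0.615% of all probe sets above the floor on at least 1 array. Of these 15 only 9 were above the floor on both arrays. The others were above it in HFD only, so they were compared only because of the array where they were high. Both the count of 10 and the median of 1.22 include their bounds. The count at least 2-fold higher was 5 with a floor at the 70th percentile and 5 without shared probe sets. Both of those runs compared fewer macrophage probe sets, so their counts are not shares of the 15. Summed signals over all probe sets of a list were 11854 in HFD and 8596 in Chow for proximal tubule, 10498 in HFD and 7602 in Chow for the distal list and 5800 in HFD and 2422 in Chow for macrophages. For podocytes they were 59686 in HFD and 64523 in Chow, and for adipocytes 7063 in HFD and 7141 in Chow, most of it from Fabp4. In a tissue sample more cells of a type and more RNA per cell cannot be told apart, and the part of these cells in the differences of Prkag1, Prkab2 and Adipor2 was not tested.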

How the data were processed

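The authors deposited probe set intensities on a linear scale, which ran from 0.0534 to 19489 (HFD) and from 0.0539 to 19853 (Chow). Per the labels' protocols, RNA was purified with a Qiagen kit and labelled in 2 amplification cycles. Per the series design text, diets were compared in GeneSpring 7.3.1. Summarization of probes and scaling of arrays are not given in the sources used here, and no detection calls were used. The 64 control probe sets were left out. Deposited values were then turned to log2, and the median over 45037 probe sets was subtracted on each array. Values under the 50th percentile were raised to it, and Chow was subtracted from HFD. Symbols are those of the 2016 platform annotation (34945 probe sets with 1 gene, 932 with several, 9160 unnamed here), and all 10 member symbols match RefSeq of GRCm38.p6 by Entrez identifier. The members and the 13 lists were chosen with earlier results of these data known. The genes named are all members and, of each list, the 4 with the largest difference among genes above the floor (3 for adipocytes); others are marked in the report. The call rule was 2-fold. The alternatives were other scalings, floors, thresholds and probe set choices. The number of arrays, 1 per diet, limits the precision. Python 3.11.15 with numpy 2.4.6, pandas 2.3.3 and statsmodels 0.14.6 was used, and the procedure was tested on simulated data.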

Additional observations from a re-analysis of the deposited data

How the results depend on the processing

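No member probe set above the floor reached 2-fold under any scaling, and none did at a threshold of 1.5-fold or 3-fold. Without a floor 3 were at least 2-fold lower (1 each of Adipoq, Lepr and Prkaa2), all of them under the floor on both arrays. The direction of small differences depended on scaling. Of the 16 member probe sets 10 were higher with median centring, quantile normalization or loess, and 7 without centring. The count was 4 when the arrays were centred on 6 Gapdh and beta-actin control probe sets, which themselves stood 0.25 log2 units higher in HFD. The member median was then -0.19, but that of all probe sets was -0.21, so relative to all probe sets the members stood 0.02 higher, against 0.03 with median centring. Over the scalings, floors and probe set choices run, this relative value lay between -0.02 and 0.04.

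With that control centring the list medians became -0.18 (leptin signalling), -0.28 (adiponectin binding), -0.14 (further AMPK subunits), -0.16 (AMPK-related kinases), -0.275 (AMPK substrates), -0.20 (other adipokines), -0.20 (adipocyte), -0.29 (podocyte), -0.069 (endothelial), -0.14 (mesangial), 0.42 (proximal tubule), 0.46 (loop, distal and collecting duct) and 0.995 (macrophage). It also left 0 probe sets at least 2-fold higher for other adipokines (the Aplnr call) and for proximal tubule, and gave 1 at least 2-fold lower for adiponectin binding. The macrophage median was 1.40 with the 30th percentile floor and 1.46 without a floor.

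Counts at least 2-fold moved with the floor. Only counts that went to or from 0, or changed by more than 1.5 times, are given here. A list not named for a setting kept its main count or moved by less, so its absence does not mean 0. Without a floor those higher were 1 (leptin signalling), 4 (further AMPK subunits), 1 (AMPK substrates), 2 (adipocyte), 2 (proximal tubule) and 16 (macrophage), and those lower 3 (AMPK-related kinases), 4 (AMPK substrates), 2 (adipocyte) and 1 (podocyte). When the 25th percentile was added in place of a floor, 1 adipocyte probe set was higher, and 1 each of AMPK-related kinases and podocyte was lower. With the 30th percentile floor those higher were 1 (leptin signalling), 1 (AMPK substrates) and 2 (proximal tubule), and those lower 1 (AMPK-related kinases) and 1 (AMPK substrates). With the 70th percentile floor other adipokines and proximal tubule had 0 higher, macrophage 5 higher and adipocyte 0 lower, and with probe sets above the floor on both arrays only, adipocyte also had 0 lower. Without shared probe sets macrophage had 5 higher. This run and that with the 70th percentile floor compared fewer macrophage probe sets. At 1.5-fold those higher were 1 (leptin signalling), 1 (AMPK-related kinases), 1 (AMPK substrates), 2 (other adipokines), 8 (proximal tubule) and 5 (loop, distal and collecting duct), and those lower 1 (adiponectin binding) and 1 (AMPK substrates). At 3-fold those higher were 0 (other adipokines), 0 (proximal tubule) and 4 (macrophage). The cause of these shifts was not tested beyond the floor and threshold themselves. A list median counted as moved when it shifted by more than 0.157, the scatter of the brightest of 10 signal classes. No paired analysis was possible because each diet has 1 array.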
